A study of Saccharomyces cerevisiae with 15 samples.

Results

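The late step of a depletion time course in the yeast Saccharomyces cerevisiae is the comparison of 3 h with 1.5 h of 5-Ph-IAA. It uses 6 of 15 libraries, 3 at 3 h and 3 at 1.5 h, chosen by the names of their columns in the count table, and every gene of that table. All 15 libraries are polyadenylated RNA of strain W303 with ZPR1-AID, an allele that fuses Zpr1 to an auxin-inducible degron, and each group has 3. Besides 3 h and 1.5 h of 5-Ph-IAA there are groups at 0.5 h of 5-Ph-IAA, at 3 h of DMSO, the solvent, and untreated at 0 h. All groups carry the degron, so effects of the compound itself and of depletion cannot be told apart. DMSO was sampled at 3 h alone, so the late step also holds 1.5 h more in culture and in solvent. The labels do not say whether the libraries of a group come from separate cultures, so p-values measure the spread between these libraries, which may be technical.

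Zpr1 is a zinc-finger chaperone that helps newly made eEF1A, the elongation factor that brings aminoacyl-tRNA to the ribosome, to fold. In auxin-inducible depletion a plant F-box protein recognises the tag when an auxin such as 5-Ph-IAA is bound, and the tagged protein goes to the proteasome. Yeast answers stress and slow growth through a few large gene programs. Msn2 and Msn4 drive general stress genes through the stress response element, Hsf1 drives chaperone genes, Gcn4 drives amino acid biosynthesis when uncharged tRNA accumulates, and the genes for ribosomes and their assembly are expressed in proportion to growth.

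The 3 h libraries held 6297003, 2530145 and 17044914 counts, and the 1.5 h libraries 8347962, 6465430 and 7419058. Spearman correlations over genes were 0.954 to 0.975 among the 3 h libraries, against 0.991 to 0.994 among those at 1.5 h. Library 3 at 3 h correlated with the 1.5 h libraries at 0.976 to 0.982, above its correlations of 0.969 and 0.954 with libraries 1 and 2 at 3 h. With the DMSO libraries its correlations were 0.958 to 0.984. Library 2 at 3 h, the shallowest, also stood apart by its share of mitochondrially encoded and small nucleolar RNA, given below.

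Between 1.5 h and 3 h, 961 of 6069 tested genes changed at an adjusted p under 0.05, which is 15.8% of those tested. Of these, 540 were higher at 3 h (8.9% of those tested) and 421 were lower (6.94%). The rises were larger than the falls: the median log2 change was 0.75 among genes called higher and -0.52 among genes called lower, and 171 rises but 6 falls reached a log2 change of 1. The higher genes include 27 small nucleolar RNA genes, and 15 of the 171 are mitochondrially encoded. Levels of both kinds differed widely among the 3 h libraries, as given below. General stress, storage carbohydrate, amino acid and vitamin genes lay on the higher side, and genes of ribosome assembly, ribosomal proteins and chaperones on the lower side. The step before it, 1.5 h against 0.5 h, had 69 calls (1.14%, with 0.923% higher and 0.214% lower), and 0.5 h against untreated cells had 373 (6.15%, with 3.36% higher and 2.78% lower). The difference between these counts was not tested.

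The count depended on which libraries entered. A fit of the 6 compared libraries alone called 631 genes (10.7% of those it tested, with 6.96% higher and 3.75% lower), of which 609 were also called with all 15. With each of the 6 libraries left out in turn the count was 523 to 1287. It was lowest without library 2 at 3 h, where 516 of the 523 were among the 961 (8.58% of genes tested, with 6.03% higher and 2.54% lower), and highest without library 3, where 849 of the 1287 were (21.1%, with 11.1% higher and 10.1% lower). In each of these 6 fits, which have fewer degrees of freedom, 281 of the 540 higher and 124 of the 421 lower genes were called. A fit of the compared libraries alone and without library 2 at 3 h, chosen after seeing the data, called 196 genes (3.3%, with 2.83% higher and 0.472% lower). Of the calls among all 15 libraries 56.2% were higher. The share was 68.4% when libraries were scaled by total counts alone in place of TMM factors, a setting that moved the median log2 change of all genes to 0.06, and 49.4% with limma-voom and library weights, which called 657 higher and 673 lower. The groups did not overlap for 969 genes on the higher side (16%) and 983 on the lower side (16.2%), whether called or not, and 490 and 418 of the called genes were among them.

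**Figure D1:**
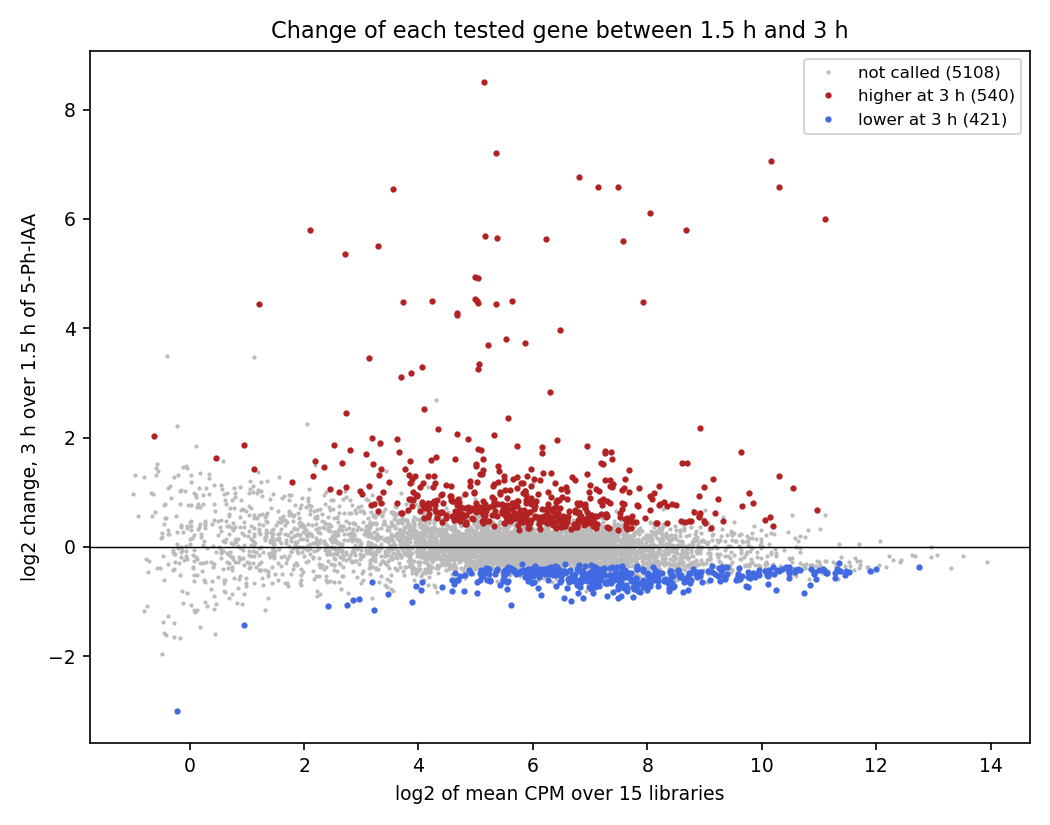
Each point is 1 of the 6069 tested genes, with the log2 of its mean CPM (the usual unit of counts scaled to library size) over 15 libraries on the x axis and its log2 change, 3 h over 1.5 h, on the y axis. The 540 genes higher at 3 h reach much larger changes than the 421 lower genes, of which 415 fell by less than 1 on the log2 scale. The large rises include small RNA and mitochondrially encoded genes whose levels differed widely among the 3 h libraries.

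The transcript of the tagged gene was lower at 3 h. On chromosome VII of R64, at 915241 to 916701, ZPR1 (YGR211W) had 104, 91 and 177 CPM at 3 h, against 265, 224 and 231 CPM at 1.5 h. Its transcript was 0.522-fold at 3 h (log2 -0.94, SE 0.30, adjusted p = 0.0436), with no overlap between the groups. Library 3 at 3 h lay nearest to 1.5 h. With 1 library left out at a time the call held only without library 3 at 3 h, and the adjusted p was 0.0815 to 0.173 without each of the other 5 and 0.053 with DESeq2. DMSO cells had 94.6 CPM, so ZPR1 at 3 h of 5-Ph-IAA was 0.41 log2 above its solvent control. These are levels of RNA and say nothing of the protein that the degron removes.

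The client of Zpr1, eEF1A, is made from a pair of nearly identical genes whose reads can be shared between them. TEF1 (YPR080W, chromosome XVI, 700594 to 701970) had 2740, 2860 and 3020 CPM at 3 h, against 3820, 3820 and 3780 CPM at 1.5 h. TEF1 fell (log2 -0.41, SE 0.11, adjusted p = 0.0208), a call lost in the 6-library fit (adjusted p = 0.0628) and without any 1 of the 6 libraries except library 3 at 3 h (0.0622 to 0.0884). TEF2 (YBR118W, chromosome II, 477671 to 479047) had 3290, 3700 and 4510 CPM at 3 h, against 5410, 4580 and 4920 CPM at 1.5 h, and did not pass (log2 -0.37, SE 0.19, adjusted p = 0.198). Among 10 genes that handle eEF1A, 3 fell and none rose, with a median log2 change of -0.47 beside 0.00 over all genes tested. They were ZPR1 and the eEF1A methyltransferase genes EFM4 (log2 -0.84, adjusted p = 0.00294) and EFM1 (-0.49, adjusted p = 0.0145, and 0.0507 in the 6-library fit). The EFM1 call was also lost without library 2 at 3 h (0.093), library 1 at 1.5 h (0.0542) or library 3 at 1.5 h (0.0637), and 1 to 5 of the 10 genes were called lower when each of the 6 libraries was left out. The ribosome-bound chaperones SSB2 (log2 -0.46, adjusted p = 0.0525) and SSB1 (-0.56, adjusted p = 0.257), near-identical copies, did not pass.

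General stress genes lay on the higher side. Of 30 genes known to answer to Msn2 and Msn4, 19 rose and none fell, and all 30 had a positive change, with a median log2 change of 0.97. With each of the 6 libraries left out in turn the count was 18 to 21, and it was 13 in the fit of the compared libraries alone without library 2 at 3 h. The genes are recognised through the stress response element AGGGG, and the promoter segments of HSP12 and TSL1, read from the R64 reference of strain S288C, show how densely it can occur. W303 may differ from that reference at single bases. Capitals mark AGGGG or its reverse complement CCCCT, written 5′ to 3′ on the strand of the gene. The segments run 397 to 166 bases before the start codon of HSP12 (chrVI:106859-107090, plus strand) and 398 to 141 bases before that of TSL1 (chrXIII:70226-70483, plus strand).
HSP12: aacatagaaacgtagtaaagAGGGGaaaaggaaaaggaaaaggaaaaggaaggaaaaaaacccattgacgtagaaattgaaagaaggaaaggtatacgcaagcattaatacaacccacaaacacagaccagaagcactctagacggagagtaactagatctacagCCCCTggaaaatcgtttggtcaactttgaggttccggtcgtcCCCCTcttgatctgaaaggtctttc
TSL1: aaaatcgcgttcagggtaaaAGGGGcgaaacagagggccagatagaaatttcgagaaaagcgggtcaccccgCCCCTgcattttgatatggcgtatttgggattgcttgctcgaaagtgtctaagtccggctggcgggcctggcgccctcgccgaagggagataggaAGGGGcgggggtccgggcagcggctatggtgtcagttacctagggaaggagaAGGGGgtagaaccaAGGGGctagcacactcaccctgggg
The HSP12 segment holds 3 matches and that of TSL1 holds 5. In a window of 300 bases, from 400 to 101 before the start codon, at least 1 match on either strand was present for 28 of the 30 listed genes (93.3%), and for 23.6% of 5991 promoters read. The share was 45.5% among genes called higher and 16.3% among genes called lower. The list was drawn from known targets, so its own share is a description of the list.

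HSP12 (YFL014W, chromosome VI, 107256 to 107585) encodes a small membrane-associated stress protein. It had 1980, 1930 and 1800 CPM at 3 h, against 618, 604 and 488 CPM at 1.5 h, a 3.34-fold rise (log2 1.74, SE 0.26, adjusted p = 0.000503). The groups lay far apart, and DMSO cells had 239 CPM against 667 CPM in untreated cells, so HSP12 moved the other way in solvent. TSL1 (YML100W, chromosome XIII, 70624 to 73920), a subunit of the trehalose synthase complex, had 131, 134 and 83.9 CPM at 3 h, against 33.3, 30.5 and 33.2 CPM at 1.5 h (3.56-fold, log2 1.83, SE 0.23, adjusted p = 0.000131). Library 3 was the lowest of the 3 h libraries and still over 2-fold above every 1.5 h library. GPH1 (YPR160W), which breaks glycogen down, had 59.7, 81 and 45.7 CPM at 3 h, against 19.6, 16.2 and 10.9 CPM at 1.5 h, a 3.93-fold rise (adjusted p = 0.000316). SPI1, a cell wall protein induced in stationary phase, rose 3.46-fold (SE 0.19 log2, adjusted p = 3.57e-05), to 57.1 ± 12.7 CPM at 3 h against 16.3 ± 4.21 CPM at 1.5 h (SD, n = 3 each). CTT1, the cytosolic catalase, had 113, 109 and 58.2 CPM at 3 h, against 23.4, 27.2 and 16.7 CPM at 1.5 h (4.13-fold, adjusted p = 0.00129). Its DMSO level of 33.3 CPM equalled the untreated level of 33.2 CPM to within 0.01 log2.

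Storage carbohydrate genes, which share members with the stress list, rose in 12 of 17 cases and fell in none (median log2 change 0.85). NTH1, the neutral trehalase that degrades trehalose, had 183, 207 and 176 CPM at 3 h, against 94.6, 97.1 and 90.3 CPM at 1.5 h (2-fold, SE 0.11 log2, adjusted p = 3.57e-05). Genes of synthesis and of breakdown were thus both on the higher side. PGM2, phosphoglucomutase, rose 2.68-fold (adjusted p = 0.000571). TPS1, which makes trehalose 6-phosphate (log2 0.50, adjusted p = 0.166), and UGP1, which makes UDP-glucose (0.40, adjusted p = 0.102), did not pass.

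Among 14 genes of stress transcription factors, 5 rose and none fell. MSN4 itself had 218, 151 and 95.4 CPM at 3 h, against 67.6, 76.2 and 80.3 CPM at 1.5 h (log2 1.05, SE 0.22, adjusted p = 0.00453), with library 3 close to the 1.5 h range. USV1 (log2 1.13, adjusted p = 0.00716), HAC1 of the unfolded protein response (0.87, adjusted p = 0.00819) and GIS1 (0.65, adjusted p = 0.0101) also rose. YAP1, the oxidative stress regulator (0.20, adjusted p = 0.266), and RPN4, the proteasome regulator (-0.28, adjusted p = 0.173), did not pass. In redox defence 2 of 21 genes rose, a share close to the 8.9% of all genes, and none fell. They were the glutaredoxin gene GRX2, which overlaps a neighbour (log2 0.62, adjusted p = 0.00436) and the glutathione transferase gene GTT1 (0.67, adjusted p = 0.0091). Without library 3 at 3 h 2 of the 21 were called higher and 2 lower.

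**Figure D2:**
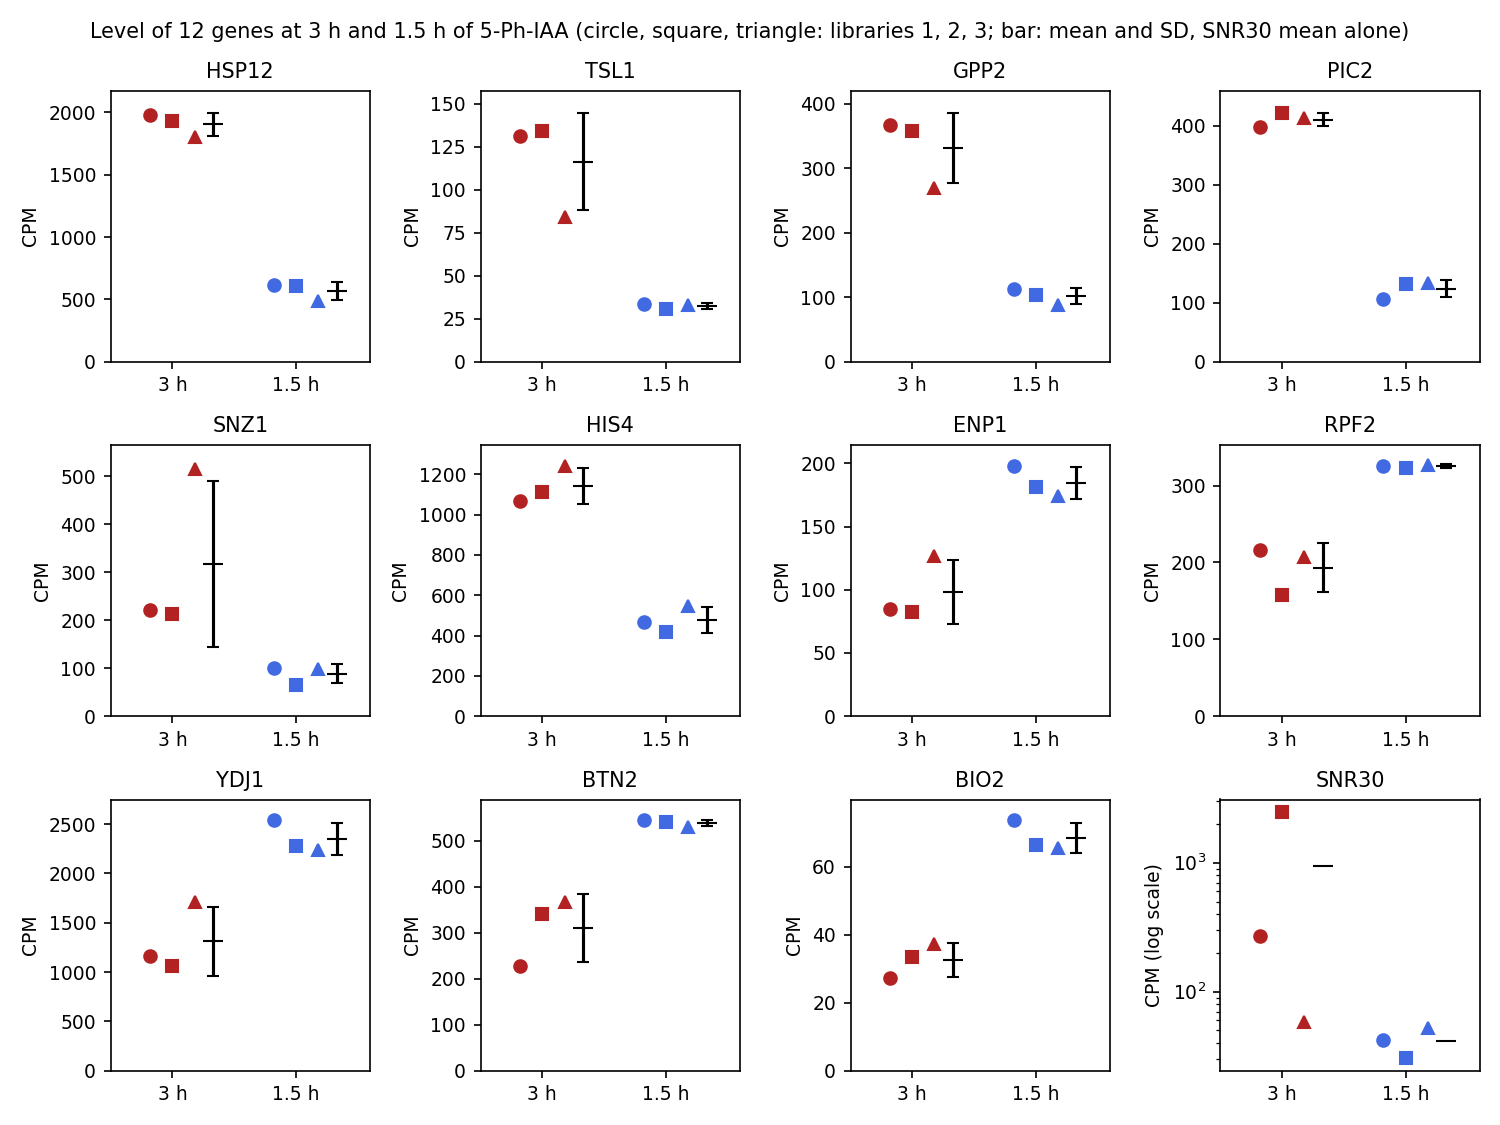
CPM of 12 genes on the y axis, with the 3 h libraries left and the 1.5 h libraries right in each panel. Circle, square and triangle are libraries 1, 2 and 3, and bars give the mean and SD, apart from SNR30, drawn on a log axis with its mean alone. HSP12 lies at 1800 to 1980 CPM at 3 h and at 488 to 618 CPM at 1.5 h, whereas for SNR30 library 3 at 3 h, at 58.6 CPM, lies near the 1.5 h libraries.

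Of the 12 largest rises 6 were of small RNA genes, given below together with RRT15. Large rises of other protein-coding genes spanned the cell surface, metabolism and signalling. BAG7 (YOR134W, chromosome XV, 578564 to 579793), a GTPase-activating protein for Rho1, had 45, 56.6 and 47.2 CPM at 3 h, against 11, 11.5 and 10.5 CPM at 1.5 h (4.48-fold, SE 0.21 log2, adjusted p = 1.75e-05). ECM13 rose 4.19-fold (adjusted p = 0.000138) and YER053C-A 3.86-fold (adjusted p = 5.95e-05). Next to YER053C-A on chromosome V, PIC2 (YER053C, 258737 to 259639), a mitochondrial phosphate and copper carrier, had 398, 421 and 413 CPM at 3 h, against 107, 132 and 133 CPM at 1.5 h. PIC2 rose 3.31-fold with a small spread (log2 1.73, SE 0.12, adjusted p = 1.09e-06). GPP2, the glycerol phosphatase of the osmotic response, had 367, 358 and 269 CPM at 3 h, against 113, 103 and 88.1 CPM at 1.5 h (3.26-fold, adjusted p = 1.75e-05). HSP30, a membrane protein that restrains the plasma membrane proton pump, had 425, 391 and 461 CPM at 3 h, against 101, 151 and 168 CPM at 1.5 h (3.04-fold, adjusted p = 0.00248). None of BAG7, ECM13, PIC2, GPP2 and HSP30 had overlapping groups. The largest rises were picked among genes without overlap, so this adds no support. VHS1, a protein kinase (3.42-fold, adjusted p = 0.00226), TOS8, a homeodomain factor (3.31-fold, adjusted p = 0.000532), and SNX41, a sorting nexin (3.13-fold, adjusted p = 0.000169), rose by similar amounts.

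Amino acid biosynthesis genes lay on the higher side. Of 42 Gcn4 targets, 21 rose, none fell and 21 did not pass, with a median log2 change of 0.45. The count was 19 in the 6-library fit, 15 to 21 with each of the 6 libraries left out in turn and 9 with the compared libraries alone without library 2 at 3 h. Gcn4 binds TGACTC, and HIS4 and SNZ1 carry 3 matches each in the segments below, marked by capitals in the same way. They run 275 to 174 bases before the start codon of HIS4 (chrIII:68507-68608, minus strand) and 325 to 154 bases before that of SNZ1 (chrXIII:458083-458254, plus strand).
HIS4: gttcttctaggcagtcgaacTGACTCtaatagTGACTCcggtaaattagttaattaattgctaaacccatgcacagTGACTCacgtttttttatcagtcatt
SNZ1: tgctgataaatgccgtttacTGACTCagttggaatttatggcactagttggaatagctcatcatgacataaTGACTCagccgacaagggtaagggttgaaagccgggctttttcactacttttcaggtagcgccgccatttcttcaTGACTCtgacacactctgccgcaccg
On either strand TGACTC was found in the 300-base window of 32 of the 42 genes (76.2%), against 8.46% of all promoters, 19% of those of genes called higher and 5.53% of those of genes called lower. HIS4 (YCL030C, chromosome III, 65934 to 68333), an enzyme of histidine synthesis, had 1070, 1110 and 1240 CPM at 3 h, against 468, 418 and 547 CPM at 1.5 h (2.39-fold, log2 1.25, SE 0.13, adjusted p = 3.57e-05). ARO3, the first enzyme of aromatic amino acid synthesis, had 1980, 1590 and 1390 CPM at 3 h, against 765, 782 and 966 CPM at 1.5 h (1.97-fold, adjusted p = 0.000326). Both showed separate groups. ORT1, the mitochondrial ornithine carrier, rose 1.75-fold (adjusted p = 0.000132), and LEU4, the first committed enzyme of leucine synthesis, 1.73-fold (adjusted p = 0.000175). ILV2 of branched-chain synthesis (log2 0.25, adjusted p = 0.164) and CPA1 of arginine synthesis (-0.11, adjusted p = 0.55) did not pass.

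GCN4, whose control is largely at translation, had 1200, 1150 and 1000 CPM at 3 h, against 831, 1040 and 1000 CPM at 1.5 h, with overlapping groups (log2 0.22, SE 0.16, adjusted p = 0.37). None of 12 genes of the pathway that controls Gcn4 passed with edgeR or DESeq2, whereas 3 had an unadjusted p under 0.05 and limma-voom called 3 lower. Without library 3 at 3 h edgeR called 2 of the 12 lower. In the fit of all 15 libraries 30 of the 42 targets were also higher at 3 h of 5-Ph-IAA than at 3 h of DMSO. Over all genes 5.07% were higher in that comparison, which uses the same 3 h libraries. In DMSO against untreated cells 5 of the 42 rose and 10 fell, with a median log2 change of 0.01, where 17.6% of all genes rose and 18.5% fell.

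Cofactor synthesis genes lay on the higher side too. Among 20 genes for vitamin B6, riboflavin and NAD, 10 rose and none fell (median log2 change 0.40). SNZ1 (YMR096W, chromosome XIII, 458408 to 459301), which makes pyridoxal phosphate, had 222, 212 and 516 CPM at 3 h, against 101, 65.9 and 99 CPM at 1.5 h (3.59-fold, log2 1.84, SE 0.30, adjusted p = 0.000917). Here library 3 was the highest at 3 h, unlike in the stress genes, and the groups did not overlap. RIB5, riboflavin synthase, had 1110, 923 and 901 CPM at 3 h, against 444, 422 and 509 CPM at 1.5 h (2.13-fold, adjusted p = 3.57e-05). BNA1 of NAD synthesis from tryptophan averaged 413 ± 60.4 CPM at 3 h and 173 ± 25.6 CPM at 1.5 h (SD, n = 3 each, 2.38-fold, adjusted p = 9.63e-05). In DMSO cells RIB5 had 373 CPM and BNA1 149 CPM, against 352 and 119 CPM in untreated cells. BNA3 rose 1.59-fold (adjusted p = 0.00273), and NPT1 of NAD salvage did not pass (log2 0.22, adjusted p = 0.216).

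Glycine and sulfur genes rose in part. Of 13 genes for glycine, serine and one-carbon units, 4 rose and none fell. GCV1, GCV2 and GCV3, subunits of the glycine cleavage complex, rose 2.34-fold (adjusted p = 3.57e-05), 1.64-fold (0.00963, and 0.0523 without library 1 at 1.5 h) and 1.46-fold (0.00624), and MTD1 1.49-fold (0.00804). MIS1, the mitochondrial folate enzyme (log2 -0.34, adjusted p = 0.129), and ADE3, its cytosolic counterpart (0.42, adjusted p = 0.0595), did not pass. Of 24 methionine and sulfate genes 4 rose, which were MET16 (log2 0.86, adjusted p = 0.000962), MET10 (0.55, 0.0179), MET13 (0.43, 0.0361) and MET22 (0.45, 0.0386), and none fell. In the 6-library fit 1 of these 4 calls remained, MET16 with an adjusted p of 0.00599. With each library left out in turn 1 to 4 of the 24 were called higher. In these fits the adjusted p reached 0.0777 for MET10, 0.145 for MET13 and 0.143 for MET22. Without library 3 at 3 h 4 were called higher and 3 lower, where 11.1% and 10.1% of all genes were.

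Among glycolytic genes the rises were of minor isoforms. Of 22 genes of glycolysis and fermentation 4 rose and none fell, with a median log2 change of 0.03. ENO1, the minor enolase, had 2460, 2350 and 1930 CPM at 3 h, against 919, 1000 and 808 CPM at 1.5 h (2.47-fold, adjusted p = 3.94e-05). TDH1, the minor glyceraldehyde phosphate dehydrogenase, had 229, 308 and 224 CPM at 3 h, against 68, 92.4 and 64.4 CPM at 1.5 h (3.38-fold, adjusted p = 3.43e-05). ADH5 (2.2-fold, adjusted p = 6.11e-05) and PYK2 (1.79-fold, adjusted p = 0.00464) completed the 4. The main isoforms TDH3, which has a near-identical paralog (log2 -0.17, adjusted p = 0.462), and ENO2 (-0.38, adjusted p = 0.0816) did not pass. ENO1 and TDH1 also stood at 2240 and 318 CPM in DMSO cells, against 296 and 73.5 CPM in untreated cells.

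Of 19 hexose transporter and sensor genes tested 5 rose (3 to 7 with each library left out, the lowest without library 2 at 1.5 h) and none fell. Without library 3 at 3 h 1 of the 19 was called lower. HXT7 and HXT6, near-identical high-affinity transporters whose reads can be shared, rose 2.17-fold (adjusted p = 0.00288) and 3.64-fold (adjusted p = 0.00844). HXT5 rose 1.93-fold (adjusted p = 0.0123, but 0.0543 without library 2 at 3 h and 0.0605 without library 2 at 1.5 h) and HXT4 1.71-fold (adjusted p = 0.0137, but 0.0606 without library 3 at 1.5 h), while HXT1, the low-affinity transporter of high glucose, had a log2 change of 0.13 (adjusted p = 0.577). In the citric acid and glyoxylate cycles 7 of 23 genes rose and none fell, among them the peroxisomal citrate synthase gene CIT2 (2.06-fold, adjusted p = 0.00129). Nuclear genes of the respiratory chain and ATP synthase rose in 5 of 40 cases and fell in none, a share not far above the 8.9% of all genes. Of the 40, 12 rose without library 3 at 3 h against 3 without library 2, where 11.1% and 6.03% of all genes rose. HAP4, the activator of respiration genes, averaged 301 ± 57.8 CPM at 3 h and 138 ± 15.9 CPM at 1.5 h (SD, n = 3 each, 2.18-fold, adjusted p = 0.000133). CYC7 and COX5B, isoforms linked to low oxygen, rose 2.87-fold (adjusted p = 0.000572) and 2.11-fold (adjusted p = 0.000642). ATP2, a catalytic subunit of ATP synthase, did not pass (log2 0.30, adjusted p = 0.215).

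At the cell boundary, 10 of 22 weak acid and multidrug genes rose and none fell (median log2 change 0.41). PDR12, the weak acid exporter, had 194, 222 and 191 CPM at 3 h, against 75.7, 83.3 and 90.1 CPM at 1.5 h (2.43-fold, adjusted p = 3.57e-05). TPO2, a polyamine exporter, had 856, 951 and 783 CPM at 3 h, against 274, 306 and 310 CPM at 1.5 h (2.91-fold, adjusted p = 7.72e-05). TPO4 (2.25-fold, adjusted p = 0.000494) and the secreted glycoprotein YGP1 (2.1-fold, adjusted p = 4.67e-05) also rose, and the drug pump PDR5 did not pass (log2 0.13, adjusted p = 0.587). Of 27 cell wall integrity genes 8 rose (5 to 8 with each library left out, the lowest without library 2 at 1.5 h) and none fell. PIR3, a wall protein, rose 2.36-fold (adjusted p = 0.00093), GSC2, the inducible glucan synthase, 2.04-fold (0.00306), CHS1, a chitin synthase, 1.56-fold (0.00375) and SED1, a main wall protein, 1.6-fold (0.00457).

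In the vacuole 7 of 11 protease and hydrolase genes rose and none fell. PRB1, proteinase B, had 136, 156 and 146 CPM at 3 h, against 73.6, 82.7 and 58 CPM at 1.5 h (2.04-fold, adjusted p = 0.000503). ATG42, a carboxypeptidase, rose 1.88-fold (adjusted p = 0.000133) and APE1, an aminopeptidase delivered by a selective autophagy route, 2.03-fold (0.000221). PEP4, proteinase A, did not pass (log2 0.27, adjusted p = 0.312). Of 24 autophagy genes 4 rose and none fell: the kinase ATG1 (1.93-fold, adjusted p = 0.00315), ATG8 (1.74-fold, 0.00464), ATG34 (2.15-fold, 0.00469) and ATG13 (1.48-fold, 0.0461). The ATG13 call was lost in the 6-library fit (0.0901) and without any 1 of the 6 libraries except library 3 at 3 h (0.0581 to 0.259).

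**Figure D3:**
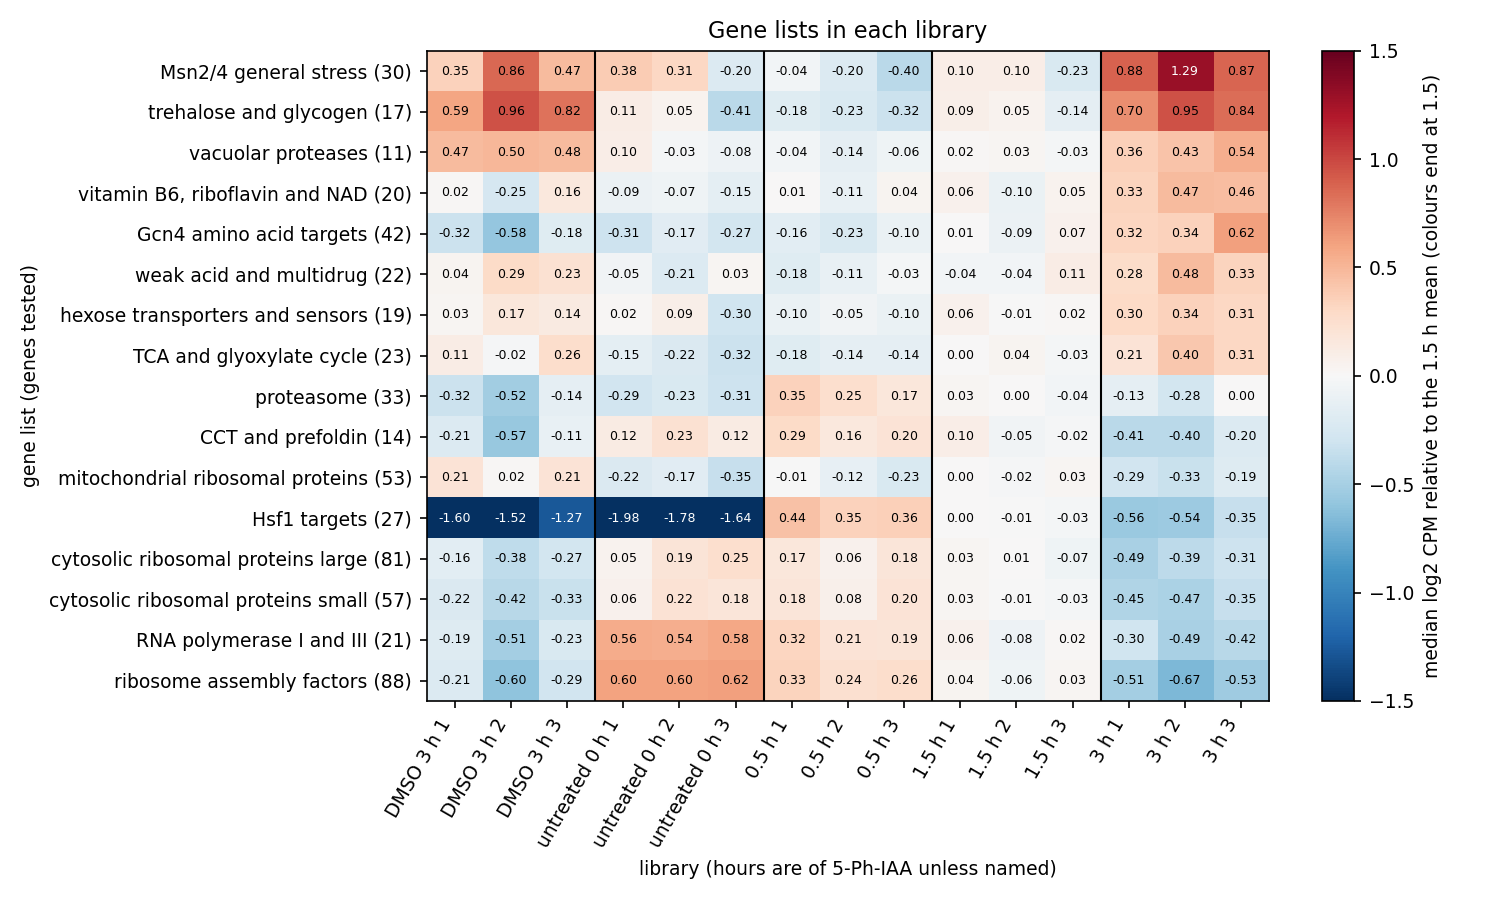
Rows are 16 gene lists with the number of genes tested, columns are the 15 libraries, and each cell gives the median log2 CPM of the list relative to the 1.5 h mean. Stress, storage carbohydrate and Gcn4 lists are above 0 in the 3 h libraries, whereas ribosome assembly, ribosomal protein and Hsf1 lists are below 0 there.

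Ribosome assembly genes had the highest share of falls among the 51 lists. Of 88, 65 fell and none rose, with a median log2 change of -0.56. The count was 55 in the 6-library fit and 40 to 68 with each of the 6 libraries left out in turn, the lowest without library 2 at 3 h, where the median was -0.50. With the compared libraries alone and without library 2 at 3 h it was 8, beside 0.472% of all genes called lower. Their promoters often carry the sequences GATGAG, called PAC, and AAAATTTT, called RRPE. The segments of ENP1 (156 to 101 bases before its start codon, chrII:714556-714611, minus strand) and RPF2 (160 to 101 bases before, chrXI:592641-592700, minus strand) hold both in the same order, marked by capitals.
ENP1: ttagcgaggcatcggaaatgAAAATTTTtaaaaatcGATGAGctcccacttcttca
RPF2: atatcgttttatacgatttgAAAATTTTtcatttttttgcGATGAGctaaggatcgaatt
On either strand, RRPE was in the 300-base window of 65 of the 88 genes (73.9%), of 32% of genes called lower, 3.93% of genes called higher and 9.08% of all promoters. PAC was in 71.6% of the list, 35.8% of genes called lower, 12.6% of genes called higher and 18.4% of all. The genes called lower include the 65 called members of the list. Of these 65, 66.2% held RRPE and 66.2% held PAC, both below the share of the whole list.

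ENP1 (YBR247C, chromosome II, 713004 to 714455), needed for the small subunit, had 84.5, 82.5 and 127 CPM at 3 h, against 198, 181 and 174 CPM at 1.5 h (0.536-fold, log2 -0.90, SE 0.18, adjusted p = 0.00345). RPF2 (YKR081C, chromosome XI, 591506 to 592540), which brings 5S RNA into the large subunit, had 216, 157 and 207 CPM at 3 h, against 326, 323 and 327 CPM at 1.5 h (0.597-fold, SE 0.13 log2, adjusted p = 0.00129). The groups were separate for both, which for ENP1 was a condition of its place among the largest falls. Library 3 at 3 h lay nearest to 1.5 h for ENP1. The other members with the smallest p were ARX1, a large subunit export factor (log2 -0.63, adjusted p = 0.00105), KRE33, the rRNA acetyltransferase (-0.72, 0.00129), and SSF1 of large subunit assembly (-0.77, 0.00151). RRP1 (-0.90, adjusted p = 0.00197), the helicase DHR2 (-0.99, 0.000156) and the cytoplasmic maturation factor REI1, which overlaps another annotated gene (-0.84, 0.00323), were among the 12 largest falls of all genes. CBF5, the pseudouridine synthase, was an exception at 1580, 1410 and 903 CPM at 3 h, against 1210, 1200 and 1480 CPM at 1.5 h (log2 0.00, SE 0.20, adjusted p = 0.996). NOP7 did not pass either (-0.44, adjusted p = 0.196).

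Of 21 genes of RNA polymerases I and III, 8 fell and none rose, and all 21 changes were negative (median log2 change -0.41). RPA12 of polymerase I had 45.6, 41.8 and 93 CPM at 3 h, against 141, 101 and 112 CPM at 1.5 h (0.525-fold, adjusted p = 0.024), with library 3 close to the 1.5 h range. The call was lost in the 6-library fit (0.0751) and without library 1 or 2 at 3 h (0.1 and 0.111) or library 1 or 3 at 1.5 h (0.111 and 0.0563), and the list count was 2 to 10 with each library left out. RPC10, shared by the polymerases, fell to 0.698-fold (adjusted p = 0.00307), RPC31 to 0.686-fold (0.00643) and RPA43 to 0.675-fold (0.0104, but 0.0608 without library 2 at 3 h and 0.0503 without library 1 at 1.5 h). RPA135, the second largest subunit of polymerase I, did not pass (log2 -0.21, adjusted p = 0.337). LHP1, the La protein that protects new transcripts of polymerase III, had 46.4, 31 and 68.4 CPM at 3 h, against 98.3, 107 and 83.1 CPM at 1.5 h (0.523-fold, adjusted p = 0.032). The LHP1 call was lost without any 1 of the 6 libraries except library 3 at 3 h (0.0539 to 0.133).

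Ribosomal protein genes lay on the lower side too. Of 81 large subunit genes 27 fell and none rose, and of 57 small subunit genes 22 fell and none rose, each with a median log2 change of -0.41. In the 6-library fit 6 of each were lower. With each of the 6 libraries left out in turn the counts were 5 to 40 and 4 to 29, lowest without library 2 at 3 h and highest without library 3, and the medians without library 2 were still -0.39 and -0.37. With the compared libraries alone and without library 2 no gene of either list was called, beside 28 lower genes of all. Together they took 21, 19.6 and 21.8% of counts in the 3 h libraries, against 25.7, 25.7 and 25.6% at 1.5 h, so all 3 libraries at 3 h were lower. RPL33B had 387, 404 and 499 CPM at 3 h, against 661, 714 and 626 CPM at 1.5 h (log2 -0.63, SE 0.12, adjusted p = 0.0033). RPS22A had 1510, 1400 and 1360 CPM at 3 h, against 1970, 2000 and 2020 CPM at 1.5 h (log2 -0.49, SE 0.10, adjusted p = 0.00507). RPS12 (log2 -0.16, adjusted p = 0.501) did not pass. Many of these genes are paralog pairs, and reads of near-identical copies could be split between them.

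Of 25 translation factor genes tested 6 fell and none rose, and 1 was called lower in the 6-library fit and 1 to 7 with each library left out in turn. EFB1, the exchange factor of eEF1A, had 1210, 1010 and 1320 CPM at 3 h, against 1950, 1900 and 1920 CPM at 1.5 h (log2 -0.70, SE 0.13, adjusted p = 0.00287). It overlaps the small nucleolar RNA gene SNR18. TIF4631, eIF4G (log2 -0.46, adjusted p = 0.0145), and TIF5 (-0.46, 0.0211) fell, calls lost in the 6-library fit (0.0502 and 0.0521), without library 2 at 3 h (0.0996 and 0.122) and without library 1 or 3 at 1.5 h (0.0537 to 0.0917), and YEF3, elongation factor 3 (-0.27, adjusted p = 0.213), did not pass. Among 21 tRNA synthetase genes GRS1 alone passed (log2 -0.49, adjusted p = 0.0331), and its call was lost in the 6-library fit (0.074) and without any 1 of the 6 libraries except library 3 at 3 h (0.0633 to 0.15). Without that library 5 synthetase genes were called lower, and none without any other.

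Chaperone genes driven by Hsf1 lay on the lower side. Of 27, 14 fell, none rose and 13 did not pass (median log2 change -0.47), and 13 fell in the 6-library fit. With each of the 6 libraries left out in turn the count was 7, 5 and 15 without libraries 1, 2 and 3 at 3 h, and 4, 7 and 6 without libraries 1, 2 and 3 at 1.5 h. With the compared libraries alone and without library 2 at 3 h none was called. The heat shock element is built from repeats of GAA and TTC. The segments of BTN2 (364 to 307 bases before the start codon, chrVII:772090-772147, plus strand) and YDJ1 (355 to 308 before, chrXIV:507405-507452, minus strand) show matches to TTCNNGAA or GAANNTTC in capitals, which overlap one another in BTN2.
BTN2: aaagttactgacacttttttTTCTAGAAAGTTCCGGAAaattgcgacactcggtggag
YDJ1: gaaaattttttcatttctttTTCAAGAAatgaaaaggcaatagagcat
TTCNNGAA was present in the window of 22 of the 27 genes (81.5%), 20.4% of genes called lower, 12.2% of genes called higher and 13.8% of all promoters. GAANNTTC was present in 55.6% of the list, 17.3% of genes called lower, 11.2% of genes called higher and 12.3% of all. Both motifs read the same on either strand.

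SSA1, a cytosolic Hsp70, had 1700, 1880 and 1910 CPM at 3 h, against 2630, 2800 and 2760 CPM at 1.5 h (log2 -0.58, SE 0.11, adjusted p = 0.00334). It shares near-identical sequence with SSA2, which did not pass (-0.58, adjusted p = 0.0739). YDJ1 (YNL064C, chromosome XIV, 505868 to 507097), its Hsp40 partner, had 1160, 1060 and 1710 CPM at 3 h, against 2540, 2280 and 2240 CPM at 1.5 h (0.559-fold, log2 -0.84, SE 0.19, adjusted p = 0.008). BTN2 (YGR142W), which gathers misfolded proteins, had 227, 340 and 366 CPM at 3 h, against 544, 540 and 530 CPM at 1.5 h (log2 -0.79, SE 0.22, adjusted p = 0.0208). The groups of SSA1, YDJ1 and BTN2 did not overlap. The BTN2 call was lost without library 1 at 3 h (0.0888) or any of the 1.5 h libraries (0.0574 to 0.0629). HSP10 of the mitochondrial chaperonin (log2 -0.56, adjusted p = 0.0045) and FES1, which recycles Hsp70 (-0.71, 0.0091, but 0.0579 without library 2 at 3 h), fell, and SSE1, the Hsp110, did not pass (-0.46, adjusted p = 0.119), with 4680 CPM in library 1 against 2930 and 2630 in libraries 2 and 3 at 3 h.

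Of the 27 Hsf1 targets, 24 were higher at 0.5 h than in untreated cells, whether or not they fell later, and these held all 14 that fell at the late step. The 0.5 h step compares none of the libraries of the late step, although both comparisons come from the same fit. Of the 421 genes called lower, 25 had been higher at 0.5 h (5.94% of these and 12.3% of the 204 genes higher at 0.5 h, where 3.36% of all genes were higher). More of the 421, namely 36 (8.55%), had already been lower at 0.5 h, which is 21.3% of the 169 genes lower there. Of all genes 2.78% were lower at 0.5 h. In order of time, the median log2 change of the Hsf1 list was 2.05 from untreated to 0.5 h, -0.40 in the next step and -0.47 in the late step. The list was still higher than in solvent: its median was 0.99 for 3 h of 5-Ph-IAA over DMSO, with 20 of 27 higher in that comparison, where 5.07% of all genes were higher and which uses the same 3 h libraries. SSA1 stood at 586 CPM and BTN2 at 129 CPM in DMSO cells, against 338 and 70.2 CPM in untreated cells. Other protein quality control lists had few calls. No gene of 33 for the proteasome passed in either direction (edgeR, median log2 change -0.12), nor did any of 15 for Cdc48 and ribosome quality control (-0.11), and CCT7 alone fell among 14 for the CCT chaperonin and prefoldin (log2 -0.51, adjusted p = 0.0401, and 0.0654 in the 6-library fit). Leaving out library 3 at 3 h gave 5 calls in the CCT and prefoldin list and leaving out any other library none. Without library 3 at 3 h 4 proteasome genes were called lower, and 1 Cdc48 gene higher and 3 lower. In that fit 11.1% of all genes were higher and 10.1% lower. At an unadjusted p under 0.05 the proteasome list had 2 genes and the Cdc48 list 3. DESeq2 called none and 3 of them, and limma-voom with library weights 5 and 5.

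The remaining large falls came from scattered functions. BIO2 (YGR286C, chromosome VII, 1063813 to 1064940), biotin synthase, had 27.3, 33.3 and 37.2 CPM at 3 h, against 73.6, 66.4 and 65.4 CPM at 1.5 h (0.479-fold, log2 -1.06, SE 0.13, adjusted p = 9.63e-05). It was the largest called fall among genes that met the level minimum of 10 CPM and had separate groups, both conditions of the ranking. TIP1, a cell wall mannoprotein, averaged 171 ± 11.2 CPM at 3 h and 323 ± 19.8 CPM at 1.5 h (SD, n = 3 each, 0.531-fold, adjusted p = 0.00118). YLR363W-A fell to 0.543-fold (adjusted p = 0.00215). IZH4 fell to 0.5-fold (0.0153), a call lost in the 6-library fit (0.0523), without library 2 at 3 h (0.0707) and without library 3 at 1.5 h (0.102). YLR460C fell to 0.547-fold (0.0278), a call lost in the 6-library fit (0.0698) and without 4 of the 6 libraries (0.0648 to 0.124).

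Several of the largest rises were of small RNA genes, a kind that oligo(dT) selection captures poorly, and their values differed widely among the 3 h libraries. SNR30, a small nucleolar RNA of 18S processing, had 268, 2480 and 58.6 CPM at 3 h, against 42, 30.4 and 52 CPM at 1.5 h (22.4-fold, log2 4.48, SE 0.96, adjusted p = 0.00558). Library 2 carried most of it, and library 3 was near the 1.5 h values. SNR63, SNR11, SNR5, SNR4 and SNR31 had the same pattern, with folds of 15.7, 14, 13, 5.14 and 3.62 and SDs at 3 h above their means. The calls of all 5 were lost in the 6-library fit (adjusted p = 0.0531 to 0.0947), and those of SNR11, SNR4 and SNR31 also without library 2 at 3 h (0.0784 to 0.131). RRT15, annotated as protein-coding, headed the 12 largest rises. It had 0.613, 497 and 18.5 CPM at 3 h, against 0.483, 0.302 and 0.547 CPM at 1.5 h, so libraries 2 and 3 held it and library 1 was at the level of 1.5 h. It was not tested in the 6-library fit. Of 69 small nucleolar RNA genes tested 27 were called higher and none lower, and 5 were higher without library 2 at 3 h. All 3 spliceosomal RNA genes tested were called higher, and none of them without library 2.

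Mitochondrially encoded genes took 0.787, 4.62 and 0.0165% of counts in the 3 h libraries, with 95% Wilson intervals of 0.78 to 0.794, 4.59 to 4.65 and 0.0159 to 0.0172 that cover counting error alone. At 1.5 h the shares were 0.0158, 0.0257 and 0.042%. Of 18 tested 15 were called higher, against 5 in the 6-library fit, 4 with limma-voom and library weights and 8 with robust estimation. With each library left out in turn 5 to 19 were, the lowest without library 2 at 3 h and the highest without library 3, a fit whose filter kept 19 of these genes. COX2, a cytochrome oxidase subunit, had 60.2, 478 and 1.2 CPM at 3 h, against 0.604, 0.302 and 2.6 CPM at 1.5 h. Its groups overlapped, although it was called (adjusted p = 0.00642). Of the 18 genes tested only 1 had groups that did not overlap. Small nucleolar RNA shares were 0.246, 1.72 and 0.0854% at 3 h, against 0.0767, 0.0761 and 0.0944% at 1.5 h. Whether the makeup of libraries 1 and 2 had a part in the changes of other genes was not tested, and both shares lay within the 1.5 h range in library 3. The called genes had median shifts of 0.73, 0.83 and 0.60 in libraries 1, 2 and 3 at 3 h if called higher and of -0.56, -0.63 and -0.42 if called lower, which describes the values that chose them.

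**Figure D4:**
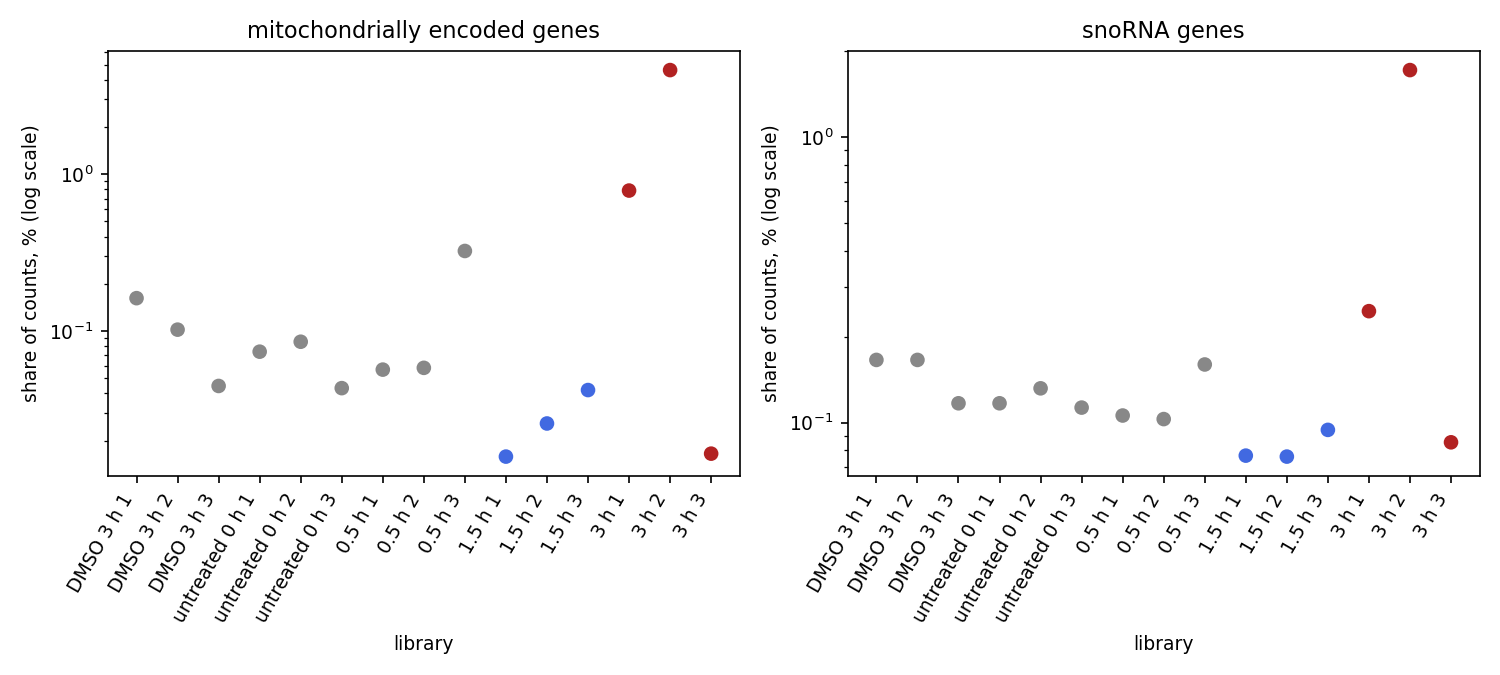
Share of counts on a log axis, in percent, for mitochondrially encoded genes (left) and small nucleolar RNA genes (right) in each library, with 3 h in red, 1.5 h in blue and the other groups in grey. Library 2 at 3 h is highest in both, at 4.62% and 1.72%, and library 3 at 3 h, at 0.0165% and 0.0854%, lies within the range of 1.5 h.

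Cells given DMSO for 3 h were compared with untreated cells to see which late changes also appear in solvent over time. These 6 libraries are not compared in the late step, but they enter the same fit and its estimate of spread. Between them 2193 genes (36.1%) changed. The comparison spans 0 to 3 h and holds the addition of solvent, whereas the late step spans 1.5 to 3 h. When within the 3 h a change in DMSO arose cannot be told. Of the 540 genes higher at the late step, 308 were also higher in DMSO (57% of the 540 and 28.8% of the 1069 genes higher in DMSO, which are 17.6% of all genes tested). Of the 421 lower genes, 317 were also lower in DMSO (75.3% of the 421 and 28.2% of the 1124 lower in DMSO, 18.5% of all). Across the 6069 genes the log2 changes had a Spearman rho of 0.521 and a Pearson r of 0.384, as a description.

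Groups differed in how far they followed DMSO. All 65 ribosome assembly genes that fell at the late step were also lower in DMSO, where 84 of 88 were lower with a median log2 change of -0.93. Of the 12 storage carbohydrate genes that rose, 11 were also higher in DMSO, where 14 of the 17 listed were. Of the 27 large and 22 small subunit ribosomal protein genes that fell, 22 and 20 were also lower in DMSO. For the Msn2 and Msn4 list 8 of the 19 rises were shared with DMSO and 3 were of genes lower in DMSO. Of the 30 listed 14 were higher in DMSO and 5 lower. For the Gcn4 list 5 of 21 were shared and 1 was of a gene lower in DMSO. Of the 42 listed 5 were higher in DMSO and 10 lower. Among Hsf1 targets none of the 14 falls was shared, and 5 were of genes higher in DMSO, where 10 of the 27 were higher and 2 lower. Over all genes tested 17.6% were higher in DMSO and 18.5% lower, and the shared part of the Gcn4 rises lay not far above the former. The differences between these shares were not tested.

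Late changes ran opposite to DMSO for 34 genes. Of the 540 genes higher at the late step 12 (2.22%) were lower in DMSO, below the 18.5% of all genes tested. They included ATR1, COA2, DDR2, FMP45, HSP12, NCA3, OAC1, PXP2, SND1, YCL048W-A and YKE4. DDR2, a stress gene, had 18.1, 32.9 and 21.1 CPM at 3 h, against 9.54, 7.86 and 6.15 CPM at 1.5 h, and 10.8 CPM in DMSO cells against 20.7 CPM in untreated cells. Of the 421 genes lower at the late step 22 (5.23%) were higher in DMSO, below the 17.6% of all genes tested. They included chaperone genes, namely BTN2, CUR1, KAR2, MDJ1, SSA1 and SSC1. They also included mitochondrial ribosomal protein genes, MRPL3, MRPL7, MRPL11, MRPL31, MRPL40 and MRPS9, and lipid genes, CDS1, HNM1, INO2 and OPI1. The late-step call held without each of the 6 libraries in turn for 7 of the 12 (among them ATR1, DDR2, FMP45, HSP12, OAC1 and PXP2) and for 4 of the 22 (INO2, OPI1, SSA1 and TIP1).

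Of 53 mitochondrial ribosomal protein genes tested 6 fell at the late step and none rose (median log2 change -0.23), and all 6 were higher in DMSO, where 30 of 53 rose (median 0.41). Over all genes 6.94% fell at the late step and 17.6% rose in DMSO. MRPS9 averaged 105 ± 19.2 CPM at 3 h and 150 ± 6.13 CPM at 1.5 h (SD, n = 3 each, log2 -0.50, SE 0.13, adjusted p = 0.0156). Its call was lost in the 6-library fit (adjusted p = 0.06), where 1 of the 53 was called, and without library 2 at 3 h (0.0838), where none was, library 1 at 3 h (0.0714) or libraries 1 or 2 at 1.5 h (0.0639 and 0.0506). The list count was 0 to 11 with each library left out in turn, the highest without library 3 at 3 h. Of 20 inositol and phospholipid genes 4 fell and none rose, and 2 to 4 fell with each library left out. INO2, the activator of these genes, had 21.7, 24 and 25.2 CPM at 3 h, against 46, 44.3 and 36.9 CPM at 1.5 h (log2 -0.84, SE 0.19, adjusted p = 0.00783), and OPI1, its repressor, fell as well (-0.63, adjusted p = 0.0033).

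**Figure D5:**
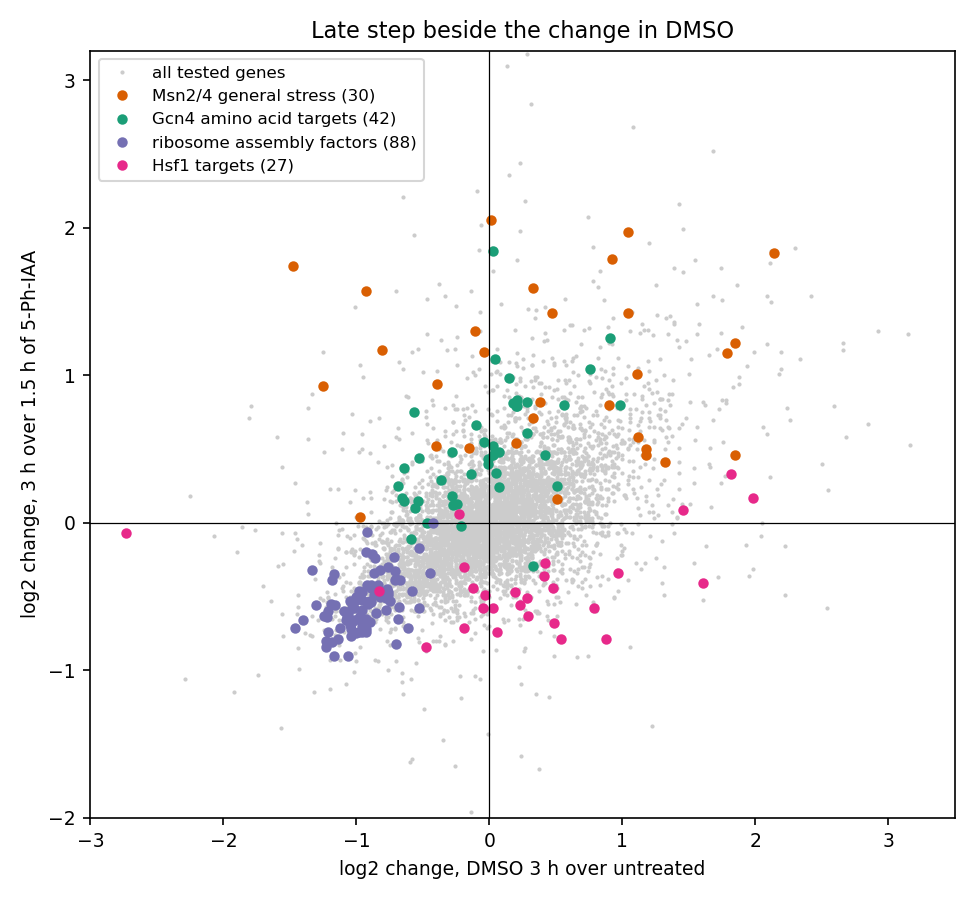
Each grey point is a tested gene, with its log2 change in DMSO at 3 h over untreated cells on the x axis and its log2 change at the late step, 3 h over 1.5 h of 5-Ph-IAA, on the y axis, and 4 gene lists are coloured. Ribosome assembly genes lie at lower left, Gcn4 targets mostly above 0 around the middle of the x axis and Hsf1 targets mostly below 0. Outside the axes lie 43 genes.

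Set against DMSO at 3 h directly, with the same 3 h libraries, 308 genes were higher (5.07%) and 174 lower (2.87%) under 5-Ph-IAA, 7.94% in all. HIS4 was 0.89 and RIB5 1.39 log2 above DMSO, HSP12 2.99 and PIC2 1.14. TSL1 was at -0.34, TDH1 at -0.33, ENP1 at -0.40 and RPF2 at -0.36 in the same comparison.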

How the data were processed

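Polyadenylated RNA of 15 libraries was sequenced. The deposited file is 1 table of raw read counts per gene, 7127 rows, used as deposited. The submitters' processing notes name FastQC 0.11.5, STAR 2.7.0, DESeq2 1.34.0 and genome build R64. How reads were counted, on which annotation and with which strand setting is not given in the sources used here, so reads of overlapping genes and near-identical copies cannot be told apart. Of the rows 6047 matched an R64 RefSeq locus tag and 125 a symbol, and 955 matched neither. Near-identical copies (at least 95% identity over at least 50% of the length) were found for 347 genes and overlaps for 323. A group was read from each column's name and title.

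Counts were filtered by edgeR 4.0.16 (R 4.3.3, filterByExpr), which left 6069 genes, scaled by TMM and tested by edgeR's quasi-likelihood test in 1 fit of all 15 libraries, with Benjamini-Hochberg adjustment over 6069 genes and a threshold of 0.05. Called, rose and fell refer to this test, and log2 changes are 3 h minus 1.5 h unless another pair is named. CPM values are counts divided by the TMM-scaled library size in the usual CPM unit. Folds of genes near 0 at 1.5 h depend on the prior count. Depth was 2530145 to 21282576 counts per library. The test was checked on simulated counts, where 8 of 147 calls were false. The simulation gave a gene the same spread in every library, unlike the wider spread of the 3 h libraries. Its share of false calls may therefore not hold for the late step. DESeq2 1.42.0, limma 3.58.1, other scalings and filters, a replicate block and leaving out each library were tried. Promoter windows were read from the R64 RefSeq genome, and 13 motifs were searched on both strands, of which 6 are described.

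The members and the 51 gene lists were chosen with earlier results of these data known. Named genes are ZPR1, TEF1 and TEF2, the 12 largest called rises and falls without overlap of the groups and with at least 10 CPM, and from each list at most 4 called members, by adjusted p, and at most 2 others, by CPM. The largest rises among protein-coding genes, BTN2, CTT1's DMSO level, the genes that ran opposite to DMSO and GAP1 were singled out after their values were seen.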

Additional observations from a re-analysis of the deposited data

How the results depend on the processing

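The count of 961 genes that differed between 3 h and 1.5 h was 1190 with DESeq2 and 1330 with limma-voom and library weights, 942 with RLE size factors, 888 with total counts alone, 916 without a filter on low counts, 1002 among genes of at least 10 CPM and 965 with robust estimation. It was 631 in the 6-library fit, 177 with a log2 change of at least 1, and 523 to 1287 with each of the 6 libraries left out. The 540 higher genes became 171 with a log2 change of at least 1, and 355 to 674 with a library left out. The 421 lower genes became 673 with limma-voom, 221 in the 6-library fit, 6 with a log2 change of at least 1, and 155 to 613 with a library left out. In 2 fits chosen after seeing the data, which held the compared libraries alone, leaving out library 2 at 3 h gave 196 genes (168 higher, 28 lower) and leaving out library 3 gave 1429 (698 lower).

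Replicate numbers in the labels do not state a shared culture or day, and same-numbered libraries at 3 h and 1.5 h deviated with correlations of -0.291, 0.00253 and -0.31, so no pairing was assumed and no library of 3 h was closest to its own number. With the replicate number as a block the count was 1033 over 15 libraries (558 higher, 475 lower) and 156 over the 6 compared libraries (139 higher, 17 lower).

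The 308 genes higher both at the late step and in DMSO became 53 with a log2 change of at least 1 and 211 to 337 with a library left out. The 317 lower in both became 203 with total counts alone, 0 with a log2 change of at least 1 and 130 to 396 with a library left out. The 25 genes lower at the late step and higher at 0.5 h became 64 with limma-voom, 0 with a log2 change of at least 1 and 9 to 45 with a library left out. The 27 genes higher at the late step and lower at 0.5 h became 71 with limma-voom, 5 with a log2 change of at least 1 and 20 to 35 with a library left out. The cause of these shifts was not tested.

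Among genes named in the text, CBF5, at a log2 change of 0.00, was the single one to change sign. Its log2 change was 0.11 with limma-voom, 0.06 with total counts alone, 0.00 without a filter, 0.01 in the 6-library fit, -0.17 and 0.20 without libraries 1 and 3 at 3 h, 0.12 without library 3 at 1.5 h and 0.21 with the compared libraries alone without library 3 at 3 h, with an adjusted p of 0.318 to 1. With at least 2 motif matches required, AGGGG was in 66.7% of the Msn2 and Msn4 list and 4.11% of all promoters, TGACTC in 26.2% of the Gcn4 list and 0.801% of all, and TTCNNGAA in 33.3% of the Hsf1 list and 1.25% of all. Over genes of at least 10 CPM the Spearman correlations were 0.936 to 0.964 among 3 h libraries and 0.987 to 0.991 among 1.5 h libraries. The number of 3 libraries a group limits precision: on counts simulated from these libraries, 40.3% of 1.5-fold, 76.1% of 2-fold and 92.4% of 4-fold changes were recovered at the late step over 6024 genes. The simulation gave a gene the same spread in every library, so these shares may not hold for the more variable 3 h libraries. Library 2 at 3 h held 2530145 counts, the fewest of the 15, so its levels of rare transcripts are the least precise.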

Other observations

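Several permease and nitrogen genes, not described above, rose. Of 28 genes repressed by good nitrogen sources 7 rose and none fell, and 7 or 8 did with each library left out in turn. BAP2, a branched-chain amino acid permease, had 703, 829 and 898 CPM at 3 h, against 440, 408 and 425 CPM at 1.5 h (1.91-fold, adjusted p = 0.000251), with separate groups. PUT4, the proline permease (2.15-fold, adjusted p = 0.000107), BAP3, a second branched-chain permease (1.7-fold, 0.000334), and UGA1, which breaks down GABA (1.61-fold, 0.000316), rose as well. GAP1, the general permease, did not pass (log2 0.29, adjusted p = 0.106). In DMSO 15 of the 28 were higher than in untreated cells. Among non-fermentable carbon genes 3 of 20 rose and none fell, namely CYB2, a lactate dehydrogenase (2.32-fold, adjusted p = 0.000168), SIP4, a gluconeogenic activator (2.36-fold, 0.000572), and ALD4, a mitochondrial aldehyde dehydrogenase (1.49-fold, 0.00782). In the phosphate list 3 of 23 rose, with PHM8 at 184, 151 and 168 CPM at 3 h, against 63, 74.4 and 60.6 CPM at 1.5 h (2.55-fold, adjusted p = 0.000336). The shares of the non-fermentable carbon and phosphate lists were not far above the 8.9% of all genes called higher.

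Some nucleotide and cell cycle genes fell. Of 27 genes of purine and guanine nucleotide synthesis and their neighbours 4 fell and 2 rose, and 1 to 6 fell with each library left out. URA7, CTP synthase, had 211, 187 and 231 CPM at 3 h, against 416, 322 and 381 CPM at 1.5 h (0.563-fold, adjusted p = 0.00304), and was called in each of these fits. Of 32 genes of the G1 and replication cluster 6 fell and none rose, but none was called in the 6-library fit and 0 to 7 were with each library left out. Of 17 G2 and mitosis genes 3 fell (0 to 2 with each library left out), among them CLB2, a mitotic cyclin (0.597-fold, adjusted p = 0.0128), whose call was lost in the 6-library fit (0.0566), without library 2 at 3 h (0.0653) and without library 3 at 1.5 h (0.0588). Of 20 pheromone response genes 3 fell (0 to 3 with each library left out) and none rose. Of 25 genes of the M to G1 cluster 2 rose (0 to 4 with each library left out) and 1 fell (1 or 2), and in zinc, iron, peroxisome, ergosterol, anaerobic wall and unfolded protein lists 2, 1, 2, 2, 1 and 1 genes rose and 1, 0, 0, 0, 0 and 1 fell, of 18, 28, 16, 26, 20 and 20 tested. Over all genes 8.9% were called higher and 6.94% lower, the shares to set beside each list of this paragraph. With each library left out in turn the zinc list had 0 to 3 higher and 0 to 3 lower, and both counts were 0 without library 2 at 3 h. The iron list had 0 or 1 higher, the ergosterol list 1 or 2, and the unfolded protein list 1 to 3 higher and 0 to 2 lower, with none lower without library 2 at 3 h, while the peroxisome and anaerobic wall counts stayed at 2 and 1. No gene was called by edgeR in the lists for thiamine (20), a-cell (8) and alpha-cell (3) genes, histones (10), sporulation (21) and the DNA damage checkpoint (11). Their counts at an unadjusted p under 0.05 were 3, 2, 0, 1, 2 and 2 in that order, DESeq2 called 1 histone gene, and limma-voom called 1 each of thiamine, a-cell, histone and checkpoint genes. Without library 3 at 3 h edgeR called 1 histone gene higher and 2 lower, and 1 thiamine gene higher and 1 lower. It also called 2 checkpoint genes and 1 iron gene lower there, where 11.1% of all genes were higher and 10.1% lower.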
